A study of Oreochromis niloticus with 12 samples.

Results

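The amino acid transporter families were the genes of Nile tilapia (Oreochromis niloticus) whose NCBI symbol begins with slc1a, slc3a, slc6a, slc7a, slc36a, slc38a or slc43a. Within these families every gene was taken, by its symbol alone. The rule gave 64 of the 42609 genes in the deposited count tables, and these were 11 slc1, 3 slc3, 20 slc6, 15 slc7, 1 slc36, 10 slc38 and 4 slc43 genes. The prefix also took slc7a6os, which is named as the opposite strand of slc7a6 and whose yeast counterpart acts in the nuclear import of RNA polymerase II, not in transport.

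Cells take up amino acids through carriers that differ in what they carry and in what drives them. The slc1 family holds the sodium-driven glutamate carriers and the neutral amino acid exchangers, slc6 the sodium- and chloride-driven carriers of neutral amino acids, neurotransmitters and creatine, slc38 the sodium-driven carriers of glutamine and other small neutral amino acids, and slc36 the proton-driven ones. Most slc7 proteins are light chains that reach the membrane only when joined to a heavy chain of the slc3 family, whereas the cationic carriers of slc7 and the slc43 carriers of branched-chain and other large neutral amino acids work alone. In muscle these carriers bring in leucine and other amino acids that feed protein synthesis and the growth-regulating kinase mTORC1, or that are oxidised.

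Fast muscle, the white glycolytic muscle of the fish trunk, was sampled from 12 females at 5 months of age. There were 6 domesticated fish, of the first generation under domestication, and 6 wild fish, and each domesticated fish (D) corresponded to a wild progenitor (W) that carried the same number, 53, 63, 66, 68, 70 or 72. The fish were separate animals, no other treatment set the groups apart in the labels, and the libraries, depleted of ribosomal RNA, shared a sequencing lane. The labels do not separate the descent of the fish from the conditions they were kept in, so that their parts in a difference cannot be told apart.

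The libraries held 4312367 to 8478988 gene counts in domesticated fish and 3395622 to 8472454 in wild fish. The 64 genes took 0.0324% to 0.277% of them. Levels are given as CPM, the count of a gene per 1000000 counts of a library total scaled by trimmed means (TMM), and since lengths of the transcripts were not used here they compare 1 gene between libraries and not genes with each other. Each of the 12 libraries correlated more closely with the mean of the other libraries of its own group than with that of the opposite group, by the least in W63 (0.911 with domesticated and 0.915 with wild) and in D53 (0.911 with domesticated and 0.902 with wild). Of 9 tested fast muscle markers 0 were called by limma at an adjusted p of 0.05 (1 higher and 1 lower at an unadjusted p of 0.05). Over all tested genes 13.2% were called in either direction and 29.9% had an unadjusted p under 0.05. The marker nearest to a call was casq1a, higher in 6 of 6 pairs (log2 fold change 1.70, limma adjusted p = 0.0741). The fast muscle markers summed to 132083 to 249668 CPM in domesticated and 55629 to 259206 CPM in wild muscle. W66 (55629 CPM) and W70 (60542 CPM) were the lowest. Of 3 tested slow muscle markers limma called 1 higher in domesticated fish, mb (log2 fold change 2.14, adjusted p = 0.0180), and 0 lower. The tested genes myl2b and prox1a had log2 fold changes of -0.24 and -0.98 and were not called. The slow muscle list, mostly mb, summed to 75.8 to 447 CPM in domesticated and 17.8 to 102 CPM in wild fish, higher in 5 of 6 pairs. Markers of some other cells also differed. Of 5 tested erythrocyte markers 4 were called higher in domesticated fish, and the sum, mostly ank1a, was 354 to 1130 CPM in domesticated fish, against 136 to 615 CPM in wild fish. Summed fibroblast markers, mostly col1a2, were 4507 to 23990 CPM in domesticated and 379 to 7778 CPM in wild fish, higher in 6 of 6 pairs. Of 6 tested genes limma called 1 higher, col1a1b, and 1 lower, fbln1 (5 higher and 1 lower at an unadjusted p under 0.05). Their median log2 fold change was 1.14. With a term for the pair dcn and col1a2 were also called higher (limma adjusted p = 0.0217 and 0.0324), and fbln1 was not called (0.0554). Of 6 tested leukocyte markers 1 was called lower, rac2, and 0 higher by limma (1 at an unadjusted p under 0.05), with a median log2 fold change of -0.59. The leukocyte list summed to 1380 to 4651 CPM in domesticated and 976 to 2708 CPM in wild fish, higher in 6 of 6 pairs. That sum was mostly lcp1 (log2 fold change 0.89, not called). All 3 tested adipocyte markers were higher, and their list, all 8 genes of which had counts, summed to 152 to 378 CPM in domesticated and 56.7 to 139 CPM in wild fish, without overlap. That sum was mostly lpla (means 162 CPM in domesticated and 46.2 CPM in wild fish) and fabp4a (114 and 51.9 CPM). Whether these were read from fat cells or from other cells was not tested. Of the untested genes of the list, pparg, lepb and fabp4b had lower means in domesticated fish, and cidec and lepa slightly higher ones. In a piece of tissue, fewer cells of a type and less RNA per cell cannot be told apart.

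Of the 64 transporter genes 17 (26.6%) had enough counts to be tested, against 19.8% of all genes. The 19.8% is over noncoding genes too, and shares of protein-coding genes by number of transcripts are given below. With limma and Benjamini-Hochberg adjustment over all 8425 tested genes, 3 were higher in domesticated muscle (slc43a1b, slc7a10a and slc3a1) and 1 was lower (slc7a8a). That is 17.6% of the tested members called higher, beside 6.69% of all tested genes, and 5.88% called lower, beside 6.5%, so that the share of lower calls was near the background. In either direction 13.2% of all genes were called, 50.7% of them higher, which became 12.8% with library totals alone as the scale, where the median log2 fold change of all genes was -0.42. Another 3 members had an unadjusted p under 0.05 without being called. Over all tested genes 29.9% had an unadjusted p under 0.05, a share that includes the called genes and so is not the like of those 3. With a term for the pair 3 members were called higher and 3 lower, beside 6.01% of all genes called higher and 6.6% called lower. The groups were fully apart in 0 of the 17, whereas 2.84% of all tested genes lay wholly higher and 2.17% wholly lower in domesticated fish. The log2 fold change, domesticated over wild, was above 0 for 6 members and below 0 for 11, with a median of -0.14, beside -0.02 for all tested genes.

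**Figure D1:**
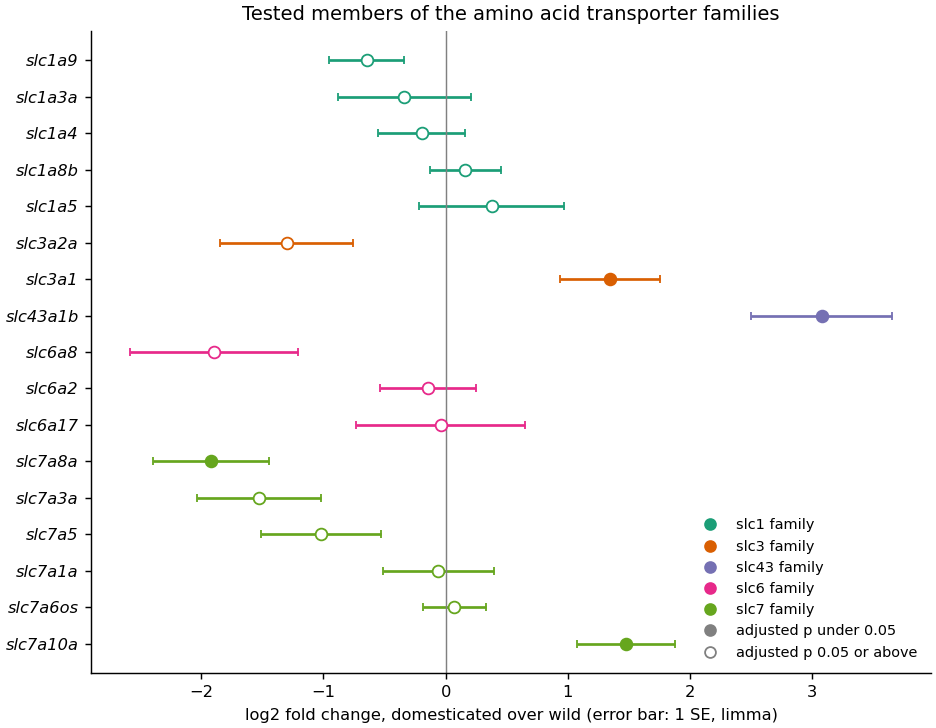
Log2 fold change, domesticated over wild, of the 17 tested members by family, with bars of 1 standard error from limma. Filled points have an adjusted p under 0.05, and slc43a1b stands farthest from 0, at 3.08, with slc7a10a and slc3a1 on the same side and slc7a8a on the other.

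The largest difference in the families was that of slc43a1b, the gene of LAT3, a carrier that moves branched-chain and other large neutral amino acids without sodium. Its level was 31.4, 140, 137, 168, 210 and 152 CPM in domesticated fish 53, 63, 66, 68, 70 and 72, against 12.8, 80.2, 12.9, 15.5, 5.74 and 7.36 CPM in the wild fish of the same numbers. A single low domesticated library, D53, and a single high wild one, W63, made the groups overlap, and all 6 domesticated fish stood above their own wild counterpart. The means were 140 ± 59.5 CPM in domesticated and 22.4 ± 28.6 CPM in wild muscle (SD, n = 6 each), a log2 fold change of 3.08 ± 0.58 (SE), with an adjusted p of 0.00586 by limma with Benjamini-Hochberg adjustment. The gene was called in 24 of 24 alternative settings, with log2 fold changes of 2.67 to 3.59. The nearest gene after it in the RefSeq annotation, zdhhc5a, had a log2 fold change of -0.08 (adjusted p = 0.929).

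LAT3 is known from zebrafish and mammals in red blood cell precursors, which need leucine to make globin, and fish carry nucleated red cells that keep RNA. Erythrocyte markers were also higher in domesticated muscle, and their sum was mostly ank1a, which averaged 710 CPM in domesticated and 275 CPM in wild fish. Whether ank1a was read from red cells or from other cells of the tissue was not tested. D53, with the lowest slc43a1b level among the domesticated fish, had their lowest marker sum (354 CPM), and W63, with the highest slc43a1b level among the wild fish, had their highest (615 CPM). Among the other domesticated fish the order differed, since D68 had 168 CPM of slc43a1b with 551 CPM of erythrocyte markers and D66 had 137 CPM with 1130 CPM. Called higher were alas2, rhag, ank1a and epor of the 5 tested erythrocyte genes, with log2 fold changes of 1.49 for ank1a and 2.06 for rhag. The means of alas2, rhag and epor were 11.8, 15.5 and 10.4 CPM in domesticated fish, and 6.11, 4.05 and 4.27 CPM in wild fish. Their order over the libraries was partly another than that of the sum. In domesticated fish epor was lowest in D53 (6.83 CPM), but rhag in D66 (7.54 CPM) and alas2 in D70 (8.34 CPM). In wild fish alas2 (9.72 CPM), rhag and epor (both 9.17 CPM) were highest in W72, and epor was lowest in W63 (1.29 CPM). The other tested gene, tfr1b, went the other way, with a log2 fold change of -0.37 that was not called. The band 3 genes slc4a1a and slc4a1b, which define mature red cells, had no count (0) in any library, but they are annotated with 2 and 10 transcripts, and reads shared between transcripts could be lost in counts made per transcript. The part of erythrocyte RNA in the slc43a1b difference was not tested.

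**Figure D2:**
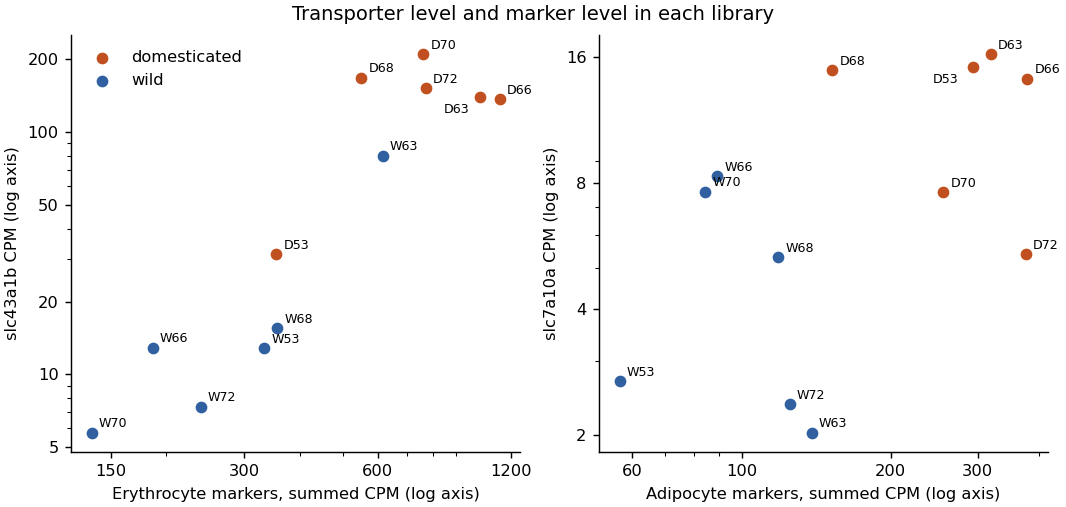
Level of slc43a1b against the summed level of the erythrocyte markers, mostly ank1a (left), and of slc7a10a against that of the adipocyte markers, mostly lpla and fabp4a (right), in CPM on log axes, for each domesticated (D) and wild (W) library. On the left, D53 lies near W53 and W68, at 333 to 356 CPM of erythrocyte markers, and has 31.4 CPM of slc43a1b, and W63 lies nearest the domesticated fish, whereas on the right the groups separate by adipocyte markers and overlap in slc7a10a.

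The other slc43 genes gave almost no counts. Reads of slc43a1b made up 99.6% of the family's total. Its duplicate slc43a1a had 4 counts in all domesticated and 12 in all wild libraries, slc43a3b had 0 in domesticated and 7 in wild libraries, and slc43a2b had none.

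Among the light chains, slc7a8a was lower in domesticated muscle. It encodes LAT2, an exchanger of large and small neutral amino acids, and it was the most counted slc7 gene, with 82.9% of the family's reads. It had 383, 59.5, 102, 68.5, 93.4 and 41.1 CPM in domesticated fish 53 to 72, against 839, 402, 361, 220, 195 and 340 CPM in wild fish. Pair 53 was the highest in both groups, D53 exceeded 4 of the 6 wild libraries, and every domesticated fish was below its own counterpart. Mean levels were 125 ± 128 CPM in domesticated and 393 ± 233 CPM in wild muscle (SD, n = 6 each), and slc7a8a fell by 1.91 ± 0.47 (SE) on the log2 scale (limma, Benjamini-Hochberg adjusted p = 0.0187). The call held in 22 of 24 alternatives. Without a filter on low counts the adjusted p was 0.0887, and without W66 and W70, the 2 libraries with the highest scaling factors, it was 0.053.

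A second light chain, slc7a10a, was higher. It encodes Asc-1, which exchanges alanine, serine, cysteine and glycine and is known from mouse as a surface marker of white adipocytes. It had 15.1, 16.2, 14.2, 14.9, 7.60 and 5.40 CPM in domesticated fish 53 to 72, against 2.68, 2.02, 8.28, 5.31, 7.61 and 2.36 CPM in wild fish. D72 and D70 were the low domesticated libraries and overlapped with W66 and W70, and 5 of the 6 pairs were higher in the domesticated fish, pair 70 being level. The log2 fold change was 1.47 ± 0.40 (SE), with a limma adjusted p of 0.0279 (Benjamini-Hochberg). It was called in 20 of 24 alternatives, and the adjusted p was 0.0515 without W72, 0.0539 without D68, 0.0751 without pair 53 and 0.210 with library totals alone as the scale. Its duplicate slc7a10b, with 14 counts in all domesticated and 48 in all wild libraries, was too low to test.

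All 3 tested adipocyte markers were higher with slc7a10a, namely lpla (log2 fold change 1.91), fabp4a (log2 fold change 1.10) and dgat2 (log2 fold change 3.59). Within the domesticated fish, however, D72 had 375 CPM of adipocyte markers, mostly lpla and fabp4a, and the lowest slc7a10a level. D68 had the lowest adipocyte marker sum, 152 CPM, and 14.9 CPM of slc7a10a. The part of adipocyte RNA in the slc7a10a difference was not tested.

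The heavy chains gave different values. The gene of 4F2hc, slc3a2a, which joins LAT2, Asc-1 and most other light chains, had the most counts of all members and 98% of those of the slc3 family. It had 1149, 88.2, 1277, 441, 554 and 173 CPM in domesticated fish 53 to 72, against 1321, 1307, 982, 998, 787 and 916 CPM in wild fish. The wild libraries lay close together, with an SD of 0.29 on the log2 scale that only 8.95% of tested genes undercut, whereas domesticated ones spread widely, with an SD of 1.52 at the 96.8th percentile. D63, D68, D70 and D72 were below every wild library, D63 by the most, and D53 and D66 were within the wild range. The log2 fold change was -1.30 ± 0.55 (SE) with a limma adjusted p of 0.125 after Benjamini-Hochberg adjustment (unadjusted 0.0308), and the gene was not called in any of the 24 alternatives.

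The other heavy chain, slc3a1, encodes rBAT, which serves the cystine and dibasic amino acid carrier of kidney and gut in mammals. Its level was 11.2, 66.6, 21.0, 26.8, 19.5 and 19.9 CPM in domesticated fish 53 to 72, against 10.4, 13.2, 8.28, 14.4, 11.1 and 3.20 CPM in wild fish. D63 was high and W72 low, D53 lay within the wild range, and each domesticated fish stood above its counterpart. With a log2 fold change of 1.35 ± 0.41 (SE) its adjusted p was 0.0425 (limma, Benjamini-Hochberg), and the call was not firm, being lost in 12 of 24 alternatives and in 9 of the 12 in which 1 library was left out, with adjusted p-values there of up to 0.0789 and of 0.15 with library totals alone. It was lost without W53, W66, W70, W72, D63, D66, D68, D70 or D72. The partner of rBAT in mammals, the light chain slc7a9, had no count. The gene prepl, whose annotated span overlaps that of slc3a1, had 76 counts in all libraries, beside 865 counts of slc3a1 in domesticated and 415 in wild libraries.

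**Figure D3:**
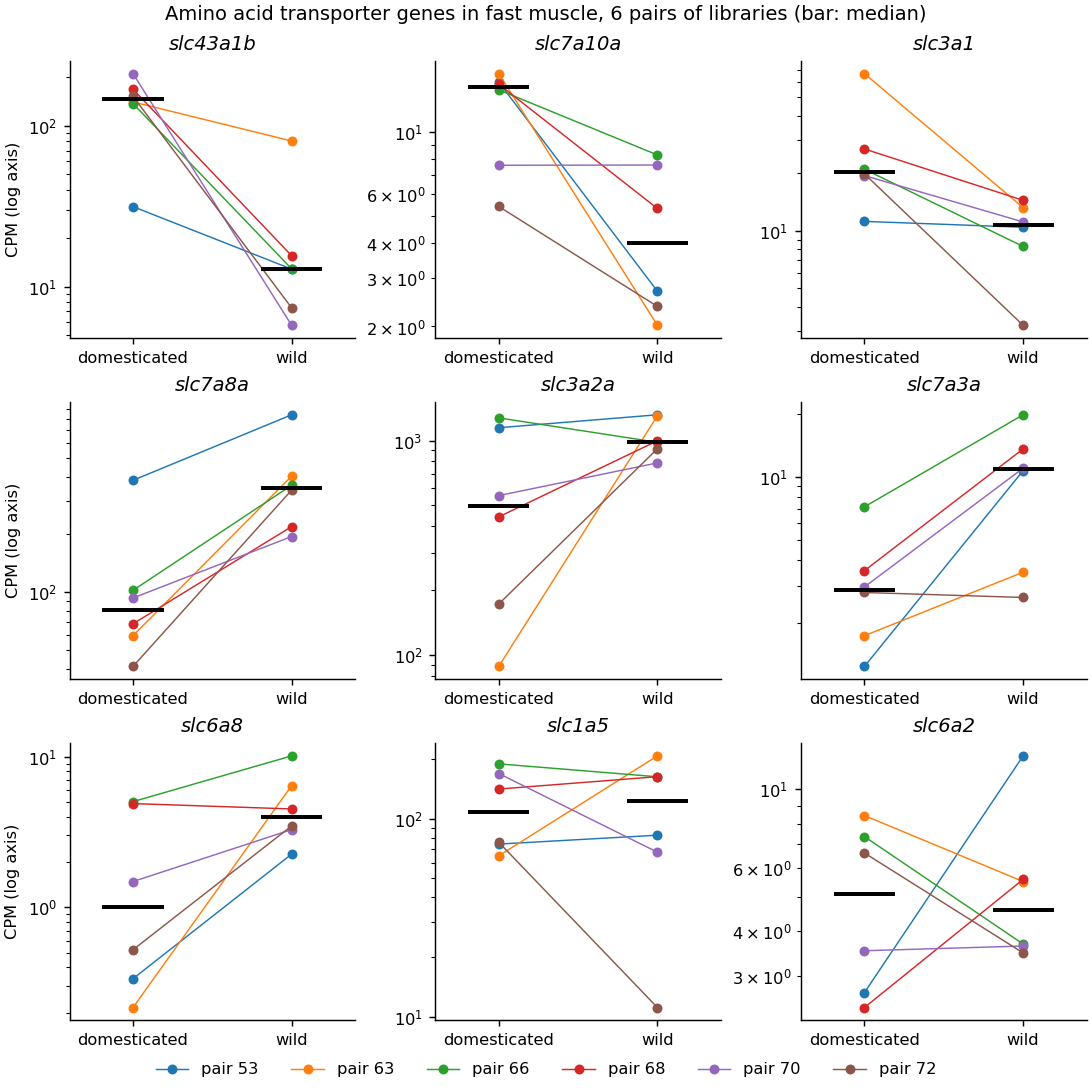
Level of 9 members in each library, in CPM on log axes, with domesticated fish left of wild fish, lines joining the pairs and black bars at the group medians. Each domesticated point of slc43a1b lies above its wild partner and each one of slc7a8a below, while slc3a2a ranges from 88.2 to 1277 CPM in domesticated and from 787 to 1321 CPM in wild fish.

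The light chain slc7a5, the gene of LAT1, which carries leucine and other large neutral amino acids into growing cells, was counted less. It had 1.12 to 3.95 CPM in domesticated muscle (median 2.74) and 1.47 to 10.3 CPM in wild muscle (median 6.74), with a log2 fold change of -1.02 ± 0.49 (SE) that was not called (limma, Benjamini-Hochberg adjusted p = 0.175). The cystine and glutamate exchanger xCT, slc7a11, did not reach the count filter, and it is singled out here after its values were seen. It had 3, 0, 2, 2, 1 and 1 counts in domesticated fish 53 to 72, against 8, 4, 37, 20, 39 and 7 in wild fish. In a fit with no filter its log2 fold change was -2.67 (limma, Benjamini-Hochberg adjusted p = 0.0135), where 1.12% of 31551 genes were called lower. With 9 counts in the domesticated libraries together, the size of that difference is imprecise. Of the 39 untested members with a count, 38 had the higher mean CPM in wild fish, as had 80.1% of other untested genes with a count.

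The cationic carriers, which move arginine and lysine and need no heavy chain, gave 1 gene near the threshold. For slc7a3a the level was 1.23 to 7.18 CPM in domesticated fish (median 2.88) and 2.64 to 19.9 CPM in wild fish (median 10.9), and it was lower in 5 of 6 pairs. The log2 fold change was -1.53 ± 0.51 (SE), not called without the pairing (limma, Benjamini-Hochberg adjusted p = 0.0600) and called with a term for the pair (0.0268). It was also called with library totals alone (0.0441) and without W63 (0.0347), W72 (0.0253) or D66 (0.0392), in all in 5 of 23 alternatives. Most of its reads, 454 of 523, fell on 1 of its 4 transcripts. The related slc7a1a, with 1.57 to 5.32 CPM in domesticated and 0.705 to 4.23 CPM in wild muscle, had a log2 fold change of -0.06 (limma adjusted p = 0.949, Benjamini-Hochberg), and slc7a2 had 2 counts in all. The slc7 symbol that is no carrier, slc7a6os, lay at 19.5 to 56.0 CPM in domesticated and 20.8 to 37.5 CPM in wild muscle.

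In the slc1 family 0 of 5 tested genes were called by limma, and 0 had an unadjusted p under 0.05. Over all tested genes these shares were 13.2% and 29.9%, and 5 genes are too few to be set apart from them. The most counted slc1 gene was slc1a5, the gene of the glutamine and neutral amino acid exchanger ASCT2, with 81.7% of the family's reads. It had 64.9 to 189 CPM in domesticated fish (median 109) and 11.1 to 207 CPM in wild fish (median 123), with W72 by far the lowest, and a log2 fold change of 0.38 ± 0.59 (SE, limma adjusted p = 0.712 after Benjamini-Hochberg adjustment). Leaving out W72 turned that log2 value to -0.19. The smallest adjusted p in the family was that of slc1a9, a glutamate carrier gene kept in fish, which was lower in the domesticated fish of 6 of 6 pairs, at 1.46 to 3.49 CPM in domesticated and 2.82 to 6.44 CPM in wild muscle (log2 fold change -0.65 ± 0.31 SE, limma adjusted p = 0.174). Its 257 counts fell on 3 of 9 annotated transcripts, 193 of them on 1, and reads shared between transcripts could be missing. The ASCT1 gene slc1a4, the glial glutamate carrier slc1a3a and slc1a8b had log2 fold changes of -0.20, -0.34 and 0.16.

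In the slc6 family, 3 of 20 genes were tested. Of these 0 were called by limma without the pairing, beside 13.2% of all tested genes. Beside 29.9% of all tested genes, 1 of the 3 had an unadjusted p under 0.05. That gene was slc6a8, which brings creatine into muscle for the phosphocreatine store. It had 0.336, 0.216, 5.03, 4.88, 1.48 and 0.523 CPM in domesticated fish 53 to 72, against 2.26, 6.43, 10.1, 4.5, 3.28 and 3.47 CPM in wild fish. D66 and D68 lay within the wild range and the other domesticated libraries below it, and 5 of 6 pairs were lower. Its log2 fold change of -1.90 ± 0.69 (SE) had an adjusted p of 0.0784 by limma with Benjamini-Hochberg adjustment, and of 0.0396 with a term for the pair, and it was called in 4 of 23 alternatives. All of its 257 counts fell on 1 of 3 annotated transcripts, and a long noncoding RNA gene that overlaps it had 50 counts. The most counted slc6 gene was slc6a2, the noradrenaline carrier, at 2.44 to 8.44 CPM in domesticated and 3.47 to 12.4 CPM in wild muscle, with a log2 fold change of -0.14 ± 0.39 (SE, limma adjusted p = 0.847, Benjamini-Hochberg). For slc6a17, a vesicular carrier of neurons, the log2 fold change was -0.04, and its direction turned in 8 of 23 alternatives.

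Of the 10 slc38 genes and the single slc36 gene, 0 reached the filter. The summed slc38 level was 2.58, 3.24, 0.539, 2.22, 3.71 and 2.79 CPM in domesticated fish 53 to 72, against 6.77, 8.08, 5.88, 5.18, 8.55 and 3.47 CPM in wild fish, lower in each pair, with only D70 above the lowest wild library, W72. The largest part, 30.8%, was slc38a6. The glutamine and alanine carrier SNAT2, slc38a2, which cells induce when amino acids run short, had no count, and the lysosomal arginine sensor slc38a9 had 9 counts in all domesticated and 11 in all wild libraries. The proton-driven carrier slc36a1 had 2 counts in all domesticated and 12 in all wild libraries.

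In slc43, slc3, slc7 and slc1 the sum over the family was mostly the count of 1 gene. The log2 ratio of the mean sums, domesticated over wild, was 2.61 for slc43, -0.02 for slc1, -0.53 for slc6, -0.73 for slc3, -1.33 for slc38 and -1.34 for slc7, and the slc7 sum, like that of slc38, was lower in each of the 6 domesticated fish than in its counterpart. The slc38 sum held only untested genes, and 80.1% of untested genes outside the families with a count had the higher mean CPM in wild fish. Without W63, the slc43 ratio was 3.62.

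The members that were not tested were 47, and 8 of them had no count in any library: slc38a2, slc43a2b, slc6a1l, slc6a11b, slc6a22.2, slc7a6, slc7a7 and slc7a9. A count of 0 allows up to 3 counts, or 0.336 to 0.665 CPM, for counting error only. All 8 are annotated with 2 to 6 transcripts, and reads shared between transcripts could be lost in counts made per transcript, so that a 0 limits only the reads that tell the transcripts apart. Among members with 1 transcript 13 of 36 (36.1%) were tested and their median mean count was 9.33, whereas among those with 2 or more it was 4 of 28 (14.3%), with a median of 1.0. The same held for protein-coding genes in general, of which 42.8% with 1 transcript and 6.84% with several were tested. Shared reads could be missing too from the tested members with several transcripts, slc1a9, slc6a8, slc7a1a and slc7a3a. Their levels and fold changes cover only the reads that were counted.

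Each of the 39 untested members with a count had more counts in the wild libraries than in the domesticated ones. In CPM the mean was higher in wild muscle for 38 of the 39, the exception being slc7a4. Most low genes had that direction, since 80.1% of the 23087 other untested genes with a count had the higher mean CPM in wild fish. The members summed to 9.52, 31.8, 11.9, 21.7, 12 and 12.7 CPM in domesticated fish 53 to 72, against 53.1, 24.1, 35.3, 16.9, 52.4 and 19.3 CPM in wild fish. W53 and W70 were highest, as they were in the other untested genes, with 12827 and 16561 CPM there. The other untested genes ranged from 3944 to 8816 CPM in domesticated and from 5968 to 16561 CPM in wild fish, and W70 also had the largest share of aligned reads outside genes, 19.4%. The part of this general shift in the members' direction was not tested.

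**Figure D4:**
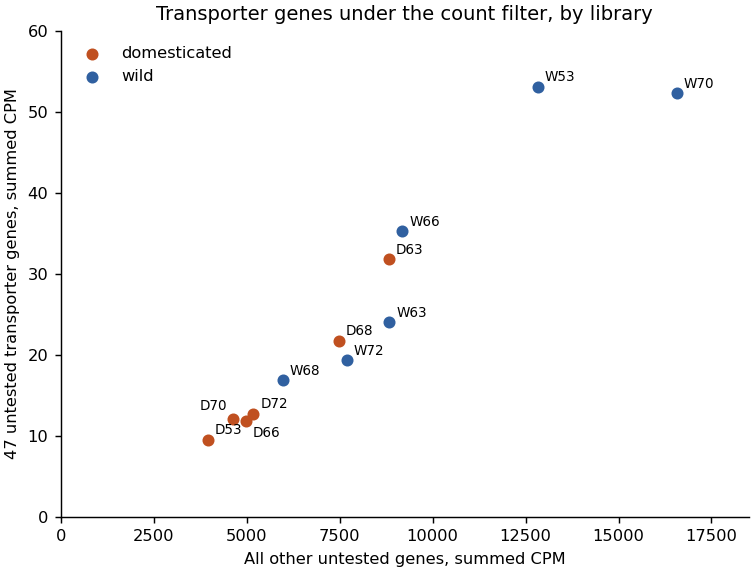
Summed level of the 47 untested transporter genes against that of all other untested genes in each domesticated (D) and wild (W) library, both in CPM. Libraries high in one sum were high in the other, with W53 and W70 at the top right and 4 of the domesticated fish at 9.52 to 12.7 CPM at the lower left.

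The median within-group SD of log2 CPM was 0.77 in domesticated and 0.76 in wild fish for the 17 tested members, beside 0.52 in domesticated and 0.59 in wild fish for all tested genes. The members with the largest SD were, in domesticated fish, slc6a17 (SD 1.82), slc6a8 (1.78) and slc3a2a (1.52), and, in wild fish, slc1a5 (1.55), slc43a1b (1.33) and slc7a5 (1.16). Counting error enters the SD of low genes. In D53 slc6a17 had 1 count, and slc6a8 had 3, 1 and 3 counts in D53, D63 and D72, whereas slc3a2a had 408 or more in each domesticated library. The part of low counts in the medians of the SD was not tested.

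Other genes of amino acid use were read from lists, which were chosen with earlier results of these data known. In the list of amino acid breakdown and conversion 9 of 22 tested genes were higher and 0 lower in domesticated fish by limma (13 higher and 1 lower at an unadjusted p under 0.05), beside 6.69% of all tested genes called higher and 6.5% lower, with a median log2 fold change of 0.73, beside -0.02 for all tested genes. The 4 with the smallest p act in the breakdown of leucine and the other branched-chain amino acids. The transaminase bcat2 had 67.2 to 129 CPM in domesticated and 28.7 to 51.2 CPM in wild muscle (log2 fold change 1.21), and the branched-chain dehydrogenase subunit bckdha had 79.4 to 112 CPM in domesticated and 17.5 to 58.2 CPM in wild muscle (log2 fold change 1.94). Of the steps after these, ivd had 62.3 to 89.4 CPM in domesticated and 18.6 to 43.1 CPM in wild muscle (log2 fold change 1.38), and the leucine-specific carboxylase subunit mccc2 had 35.2 to 53.7 CPM in domesticated and 9.45 to 15.3 CPM in wild muscle (log2 fold change 1.74). In each of these 4, picked by their p, the groups were apart, beside 2.84% of all tested genes wholly higher in domesticated fish. Their limma adjusted p-values were 0.00144 to 0.00586 (Benjamini-Hochberg). Also higher were hibadhb, dbt, oat and asl.

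In a list of the amino acid response, by which cells short of amino acids induce transporters and synthetases through ATF4, 4 of 16 tested genes were lower and 3 higher, beside 6.5% lower and 6.69% higher of all tested genes, with a median of -0.44. Lower were trib3 (log2 fold change -3.22), cebpb (log2 fold change -2.69), atf3 (log2 fold change -2.53) and ddit4 (log2 fold change -2.35), which are stress-induced regulators, with limma adjusted p-values of 0.00540 to 0.0249 (Benjamini-Hochberg), each in 6 of 6 pairs. Median levels of trib3 were 2.67 CPM in domesticated and 40.4 CPM in wild muscle, and those of atf3 were 16.4 CPM in domesticated and 123 CPM in wild muscle. Higher were the synthetases nars1 (log2 fold change 1.42, limma adjusted p = 0.00577) and sars1 (log2 fold change 0.85) and the serine enzyme psph (log2 fold change 1.19), of which sars1 and psph were not called with a term for the pair (adjusted p = 0.0701 and 0.0859). Of the ATF4 genes, atf4b had a log2 fold change of -0.62 that was not called (limma adjusted p = 0.122), and atf4a had no count. A main target, asns, was too low to test. Tested genes of the list that were not called included chac1, with means of 1188 CPM in domesticated and 2104 CPM in wild fish. Its log2 fold change was -0.06 (limma adjusted p = 0.962). Log2 fold changes of mthfd2, aars1 and pycr1b, also not called, were -0.73, 0.46 and 0.98. Both atf4a and asns are annotated with 2 transcripts, and reads shared between transcripts could be lost in counts made per transcript.

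Of 15 tested genes of lysosomal amino acid sensing 2 were lower and 0 higher by limma (3 lower and 2 higher at an unadjusted p under 0.05), a share near the 13.2% of all tested genes called in either direction, with a median log2 fold change of -0.21. They were sesn1 and rragcb. For sesn1, a leucine-responsive brake on mTORC1, the log2 fold change was -1.29 (limma adjusted p = 0.0221, Benjamini-Hochberg). Its groups were apart, beside 2.17% of all tested genes wholly lower in domesticated fish. For rragcb, a Rag GTPase subunit, the log2 fold change was -1.03 (limma adjusted p = 0.0434, and 0.0810 with a term for the pair). Of 7 tested amino acid and peptide carriers outside the 7 families 0 were called by limma (2 at an unadjusted p under 0.05), and their median log2 fold change was -0.25.

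**Figure D5:**
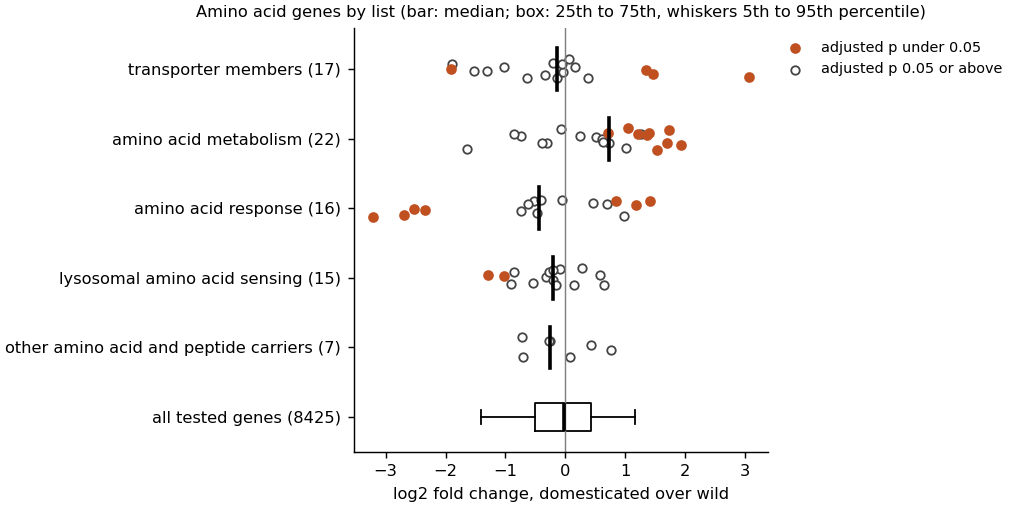
Log2 fold change, domesticated over wild, of the tested transporter genes and of 4 lists of related genes, with the number tested in brackets, a bar at the median, and filled points for an adjusted p under 0.05. The metabolism list lies to the right, with a median of 0.73, the response list is split, and the box at the bottom gives all 8425 tested genes, with a median of -0.02.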

How the data were processed

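Processed counts of 12 fast muscle libraries, 6 domesticated and 6 wild, were used. The authors' deposited tables hold whole-number read counts for each of 80392 transcripts and 5 summary lines, with no normalization and a unit entered here as other, because their file format was not parsed by the automatic unit check. The submitters' processing notes name Trimmomatic 0.33, STAR, HTSeq and edgeR. For the build, the strand setting and the other versions, not given in the sources used here, no value was assumed. The kit kept strand, but overlapping genes are uncertain for that reason, as are near-identical copies. Reads not unique took on average 51.5% of aligned reads, ambiguous ones 13.4% and those outside genes 11.2%, and all were left out.

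Transcript counts were added per gene (42609 genes). Symbols and neighbouring genes came from the RefSeq table of O_niloticus_UMD_NMBU, which held 42607 of them, whose coordinates were used for order and overlap of genes and are not printed. Members and lists were chosen with earlier results of these data known. A gene entered the tests with 15 counts or more in total and 10 or more, adjusted for depth, in at least 6 libraries (8425). Log2 CPM, with TMM-scaled totals and a pseudocount of 0.5, went into limma 3.58.1 under R 4.3.3 (trend, robust, condition as the term, Benjamini-Hochberg adjustment, threshold 0.05). The planned quasi-likelihood count test was replaced by limma because that automatic check, which has to pass before count models are used, could not parse the files, although they hold counts. A fold change is on the log2(value + pseudocount) scale and understates low genes. On simulated counts of 8425 genes, with 100 genes at each fold, limma recovered 17% of 2-fold and 70% of 4-fold changes, 2 of 89 calls were false, and 0 calls were made with no change. The data gave 1112 calls, so that the adjustment was stricter in the simulation and its recovery is not that of these data. Genes were also drawn independently of each other, so that its share of false calls does not carry over. Tables and figures used Python 3.11.15, pandas 2.3.3, NumPy 2.4.6 and matplotlib 3.10.9.

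Libraries of 1 number are genetically paired by the labels. In pairs 53, 63, 66, 68, 70 and 72 the correlation of their deviations from each group's mean was 0.21, 0.12, 0.046, -0.10, -0.089 and 0.046. The unpaired fit was the main one, and a paired value is given where it changed the call of a named gene. Genes were named by rule: slc43a1b, each called member, the most counted tested member of a family, up to 6 uncalled ones with an unadjusted p under 0.05, and up to 4 called genes per list and direction. The others were named after their values were seen. A further called gene of the metabolism list is not reported here. Alternatives were the pair term, 3 scalings, 2 filters, a pseudocount of 2, other limma settings, genes with 1 transcript, each library left out and, chosen after seeing the data, leaving out pair 53, or W66 and W70. Counts carry no molecular identifiers, so that limits cover counting error only.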

Additional observations from a re-analysis of the deposited data

Results flagged for a closer look

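Values were compared as log2 CPM in 34 groups of 6 libraries (17 tested members, each in domesticated and wild fish). In 4 of these groups, a library's gap to its nearest neighbour was a larger share of the range than Dixon's limit for 6 values. Chance gives about 1 such group in 20. In domesticated fish, slc43a1b was lowest in D53 (gap 0.775 of the range). In wild fish, slc7a1a was lowest in W53 (0.850), slc3a1 was lowest in W72 (0.631), and slc6a2 was highest in W53 (0.629). Without D53 or without W72 slc43a1b was still called, whereas slc3a1 was called without D53 and not without W72, where its log2 fold change was 1.05 (limma, Benjamini-Hochberg adjusted p = 0.0719).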

How the results depend on the processing

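The median log2 fold change and the counts of calls kept their size under median-of-ratios and upper-quartile scaling, and slc43a1b was called in all 24 settings. With library totals alone, members called were 1 higher and 3 lower, all genes 680, and the metabolism, response and sensing lists 3, 4 and 1. Without W66 and W70 these were 2, 0, 292, 6, 4 and 0. Sensing calls were 0 with no filter (786 in all) and 1 with voom weights or with genes of 1 transcript. The replicate block, for the pairing, called 1062 genes, 3 members lower and 1 sensing gene, and changed no member's call beside slc7a3a and slc6a8. With 1 library left out, members called higher were 1 to 3 and lower 1 to 3, all genes 628 (without D70) to 1349 (without W63), with 648 without D72, 668 without W66 and 696 without W70, response genes 4 to 8 and sensing genes 0 to 4.

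Only uncalled members turned direction. Log2 fold changes with library totals alone were -0.027 for slc1a5, -0.24 for slc1a8b and -0.33 for slc7a6os. With no filter they were 0.11 for slc6a17, 0.0053 for slc6a2 and 0.087 for slc7a1a, and with a pseudocount of 2 0.088 for slc6a17. Without pair 53 they were 0.036 for slc1a3a, 0.71 for slc6a17, 0.26 for slc6a2 and -0.031 for slc7a6os. Without W66 and W70 they were 0.033 for slc1a3a, -0.092 for slc1a8b, 0.071 for slc6a17, 0.22 for slc7a1a and -0.090 for slc7a6os. With 1 library left out the ranges were -0.19 to 0.66 for slc1a5 (negative without W72), -0.030 to 0.35 for slc1a8b, -0.33 to 0.61 for slc6a17, -0.29 to 0.12 for slc6a2, -0.43 to 0.12 for slc7a1a and -0.11 to 0.21 for slc7a6os. The causes were not tested. The edgeR quasi-likelihood test and DESeq2 were not run, because the automatic check of units could not parse the format of these count files.

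With 3395622 to 8478988 gene counts per library, 47 of 64 members were too low to test, 39 of them with counts. In simulated counts, with fewer changed genes than were called in the data, 17% of 2-fold changes were found.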
